A study of Saccharomyces cerevisiae with 21 samples.

Results

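Yeast cells that had been dried, stored dry and given water again for 360 min were compared with cells of the same strain 18 h into drying, when the sample titles call them 50% dry. Both states were sampled in YPD diluted 1:20, so the comparison sets cells on their way into dryness against cells on their way out of it. It rests on 6 of the series' 21 arrays, 3 for each state, and covers every probe set on the chip that is not a chip control, 9275 of 9335. All cells were Saccharomyces cerevisiae BY4743, a diploid of the S288C background that lacks URA3. Cells grown in YPD, a rich glucose medium, were resuspended in the diluted medium and dried in Petri dishes at 22 to 25 °C. The rehydrated cells had dried for 42 h and then been held for 72 h at a relative humidity of 20% before medium was added back. Cells of 4 plates were pooled in a flask for the rehydration samples. The whole series holds 7 time points of 3 arrays each, namely a control before drying, 18 h, the dry state, and 15, 45, 90 and 360 min of rehydration.

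Yeast that runs out of glucose turns to respiration of ethanol and acetate. The glyoxylate cycle and gluconeogenesis then build sugars from 2-carbon compounds, peroxisomes break down fatty acids, and the tricarboxylic acid cycle feeds electrons to a respiratory chain whose subunits are encoded partly in the nucleus and partly in mitochondrial DNA. Water loss also calls on trehalose, chaperones and hydrophilins, which are small, very soluble proteins that accumulate when cells dry. On a return to growth, the usual order is that genes for ribosomes and their assembly rise while stress and reserve genes fall. Diploid cells starved of glucose and nitrogen can instead enter meiosis, a switch that the transcription factor Ime1 controls.

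A value called signal is the linear probe set brightness that the authors deposited, already scaled per array. Signals are listed in the order of replicates 1, 2 and 3 or as mean ± SD (n = 3). A log2 change is the 360 min mean minus the 18 h mean of log2 signals, ± SE, from a limma fit, and "rose" and "fell" are used of an adjusted p under 0.05. Background was a signal of 29.6. The labels do not say whether replicates were separate cultures, so the p-values speak only of the variation among these arrays, part of which may be technical.

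Some measurements on the chips themselves differed between the groups. The hybridization spike-ins, control RNAs added at the hybridization step, averaged 8.58 to 8.79 (log2 signal) at 18 h and 10.7 to 10.8 at 360 min. The brightest probe set read 7881 to 8294 at 18 h and 24112 to 25608 at 360 min, while the array medians were 166 to 171 and 131 to 133. The log2 ratio of the 3′ over the 5′ control probe set, which rises as transcripts are shortened or copied less far, went from a mean of 0.61 to 2.32 for ACT1, by 1.71 (exact two-sided permutation p = 0.1, the smallest that 3 against 3 arrays allow). For SPT15 it differed by 0.97 (exact permutation p = 0.1) and for SRB4 by 0.35 (exact permutation p = 0.2). Put into 4 groups of equal size by gene length, protein-coding genes had median log2 changes of -0.40, -0.56, -0.55 and -0.45, from shortest to longest. Gene length does not give the place of a probe set in its transcript, so nothing about the ratios above follows from it. No scan day held arrays of both states, so the scan day and the state cannot be told apart. A random block for scan day does not separate them either, as no time point had arrays on scan days of both. The part of these differences in the results was not tested. Signals of different arrays correlated at 0.976 to 0.986 within 18 h, at 0.957 to 0.962 within 360 min and at 0.882 to 0.889 between the states. A URA3 control probe set was below background on all 6 arrays.

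Of 9275 probe sets, 2056 rose (22.2%) and 3370 fell (36.3%), together 58.5%, and 65.8% showed no overlap between the 3 arrays of each state. A change of at least 4-fold was seen for 342 probe sets that rose and 400 that fell. Taking 1 probe set for each of 5656 genes, 974 genes rose (17.2%) and 2800 fell (49.5%), with a median log2 change of -0.46. The counts of each list below are to be read beside these shares of genes. These shares depend on how arrays are set level. Median centring moved all changes by 0.35, after which 3120 probe sets were higher and 2332 lower (57.2% of changed probe sets higher, against 37.9% as deposited). Quantile normalization gave 2492 higher and 2746 lower (47.6% higher). Scaling to the spike-ins moved every change by -2.03 and left 114 higher and 8040 lower (1.40% higher). All changes below are therefore relative to the deposited scaling, and a rise of less than 2.03 becomes a fall when spike-ins are set equal. When nuclear protein-coding genes were put into 10 groups of equal size by their mean signal over all arrays, 25.96% of the brightest group rose as deposited and 14.63% under quantile normalization. In each of the other groups under 18% rose as deposited, and in all of them but the dimmest that share was larger under quantile normalization.

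**Figure D1:**
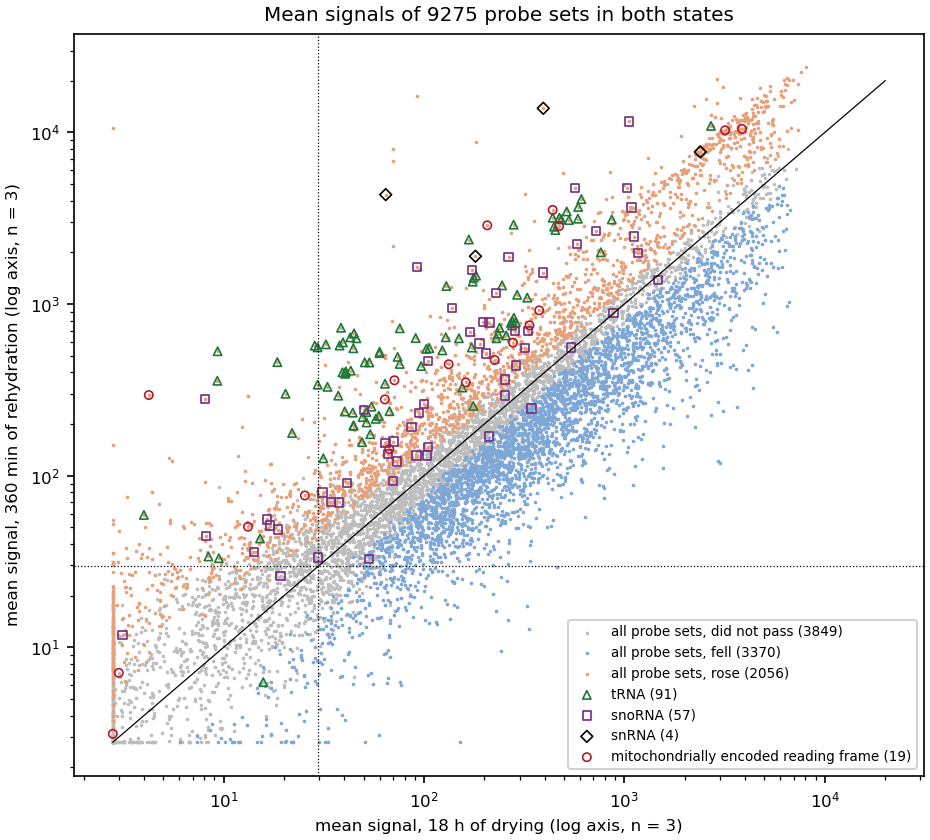
Mean signal at 18 h of drying (x, log axis, n = 3) against mean signal at 360 min of rehydration (y, log axis, n = 3) for 9275 probe sets, with 4 RNA classes outlined; the solid line marks equal signals, dotted lines the background and values under the floor of 2.8 are drawn there. Of the tRNA probe sets, 89 of 91 rose, and most of the brightest points at the top right lie above the line of equal signals.

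Among RNAs that are not messengers, transfer and small nuclear RNAs rose nearly throughout, where 14.9% of nuclear protein-coding genes rose. These RNA classes, taken from RefSeq, were looked at after their values were seen. Their signals, and those of mitochondrially encoded genes below, may reflect how well the RNA was copied into cRNA as well as its amount. Which of these changed was not tested. Of 91 tRNA genes, the adapters of translation, 89 rose and none fell, with a median log2 change of 2.55 and a median signal of 63.9 at 18 h and 553 at 360 min. The 3 arrays of each state did not overlap for 90 of them. Probe sets of 88 of the 91 carry a suffix for possible cross-hybridization, so single tRNAs are not separated. The tRNA median also stayed above 0 with spike-ins set equal, at 0.53. Across the time points the median tRNA signal was 132 in the control, 249 in the dry cells, and 449, 361 and 413 at 15, 45 and 90 min. The 18 h value was thus the lowest of the 7 and the 360 min value the highest.

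All 4 small nuclear RNAs with a probe set, the RNA parts of the spliceosome, rose. SNR14, the U4 RNA, had signals of 402, 384 and 395 at 18 h and 12977, 13899 and 14585 at 360 min. These do not overlap, and the log2 change was 5.13 ± 0.09 (limma adjusted p = 7.04e-16). SNR19, the U1 RNA, went from 181 ± 25.1 to 1898 ± 185 (3.40 ± 0.17), SNR6, the U6 RNA, from 2391 to 7702 (1.69 ± 0.12) and SNR7-L, the long form of U5 with a suffixed probe set, from 64.4 to 4341 (6.07 ± 0.18). With spike-ins set equal SNR6 turned to -0.34, while the class median was 2.24. The SNR14 signal was 80.8 in the control, 2871 in the dry cells, and 7176, 8138 and 8077 at 15, 45 and 90 min of rehydration, so it was already high within 15 min of wetting.

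Of 57 small nucleolar RNAs, which guide the modification and cutting of ribosomal RNA, 42 rose and 1 fell, with a median of 1.30 that turned to -0.73 under spike-in scaling. SNR61, a methylation guide, had signals of 1075, 760.2 and 1337 at 18 h and 12541, 11509.5 and 10735 at 360 min. The ranges lie far apart (3.49 ± 0.40, adjusted p = 1.51e-06). SNR45 and SNR4, which assist acetylation of 18S ribosomal RNA, went from 92.6 to 1637 (4.15 ± 0.30) and from 567 to 4756 (3.07 ± 0.14), and SNR46, a pseudouridylation guide, from 174 to 1579.8 (3.19 ± 0.25). SNR190 was at background on all 18 h arrays and reached 279.9, at least 9.44-fold higher. The exception was SNR37, which fell from 343 to 246 (-0.48 ± 0.17). SNR8, SNR11 and SNR71 did not pass the test, with log2 changes of -0.07, 0.01 and 0.03. RPR1, the RNA of the ribonuclease P that trims tRNA precursors, rose from 2218 ± 243 to 14224 ± 1106 (2.68 ± 0.14), and TLC1, the telomerase template RNA, from 162 ± 9.47 to 1247 ± 144 (2.94 ± 0.24). No arrays of the states overlapped for either. A chip control probe set for 25S ribosomal RNA read 278 on average at 18 h and 8259 at 360 min, while the other four were dim, with means of at most 332, and changed by 0.59 to 1.27. The control probe sets for 18S ribosomal RNA averaged at most 40.1 at 18 h. The brightest of them at 360 min went from 32.7 to 309 (3.27), and the rest reached at most 78.5, with changes of 0.57 to 2.42. Of 4 ribosomal RNA genes of RefSeq, all on suffixed probe sets, 1 rose and 3 did not pass.

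Most genes of the mitochondrial DNA rose while most of their nuclear partners fell. Of 19 mitochondrially encoded reading frames with a probe set, 17 rose and none fell, with a median log2 change of 1.59. The 8 coding for the respiratory chain, ATP synthase and a ribosomal protein (ATP6, ATP8, COB, COX1, COX2, COX3, OLI1 and VAR1) all rose, against 17.2% of all genes. ATP6, a membrane subunit of ATP synthase, had signals of 229, 173 and 218 at 18 h and 3824, 2519.7 and 2283 at 360 min. The 3 arrays of each state lie clearly apart (3.77 ± 0.40, adjusted p = 6.08e-07). COB, cytochrome b, went from 438 ± 83.7 to 3536 ± 518 (3.02 ± 0.17), COX1, the catalytic subunit of cytochrome oxidase, from 3860.4 to 10478 (1.44 ± 0.13) and ATP8, next to ATP6 in the synthase and on a suffixed probe set, from 133 to 446 (1.79 ± 0.25). SCEI, the homing endonuclease carried by an intron of the large mitochondrial ribosomal RNA, was at background at 18 h and reached 295, at least 9.90-fold higher. Only ATP6 and COB of the 8 remained called as higher with spike-ins set equal, where the list's median was -0.30.

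Among nuclear genes for respiratory complexes and the ATP synthase, 2 of 37 rose, 30 fell and 5 did not pass, where 49.5% of all genes fell. The median log2 change was -1.28. NDE1, the outward-facing mitochondrial NADH dehydrogenase, had signals of 6199, 6931 and 6735 at 18 h and 1103, 973 and 1013 at 360 min. The highest array at 360 min was far below the lowest at 18 h (-2.69 ± 0.09, adjusted p = 1.79e-12). RIP1, the Rieske protein of the cytochrome bc1 complex, fell from 4321 ± 448 to 441 ± 16.3 (-3.29 ± 0.11), COX4, a cytochrome oxidase subunit, from 3036 to 452 (-2.75 ± 0.09) and ATP3, the gamma subunit of ATP synthase, from 5498 to 738 (-2.89 ± 0.11). The 2 that rose, NDE2 and QCR6, changed by 0.48 and 0.34. Their change under quantile normalization was -0.68 and 0.65, so the rise of NDE2 turned there. Of the 30 falls, 28 were also called under quantile normalization.

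The tricarboxylic acid cycle moved the same way: 0 of 17 rose, 13 fell and 4 did not pass, with a median of -1.45. All 13 falls remained under quantile normalization and under median centring. IDH2, a subunit of isocitrate dehydrogenase, had signals of 1434, 1558 and 1456 at 18 h and 378, 348 and 304 at 360 min. Replicates were tight in both states (-2.11 ± 0.10, adjusted p = 6.14e-11). SDH3 and SDH1, subunits of succinate dehydrogenase, fell from 6469 to 981 (-2.72 ± 0.13) and from 2853 to 515 (-2.48 ± 0.14), and LSC2, of succinyl-CoA ligase, from 2414 to 907 (-1.41 ± 0.08). CIT1, the citrate synthase that opens the cycle, and KGD1 did not pass, at -0.25 ± 0.13 and 0.06 ± 0.15 (both named after their values were seen). The median log2 signal of the list was 11.39 in the control, 11.82 at 18 h, 11.24 in the dry cells, and 10.78, 10.75, 10.57 and 10.30 over rehydration. It was highest at 18 h and lowest at 360 min.

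**Figure D2:**
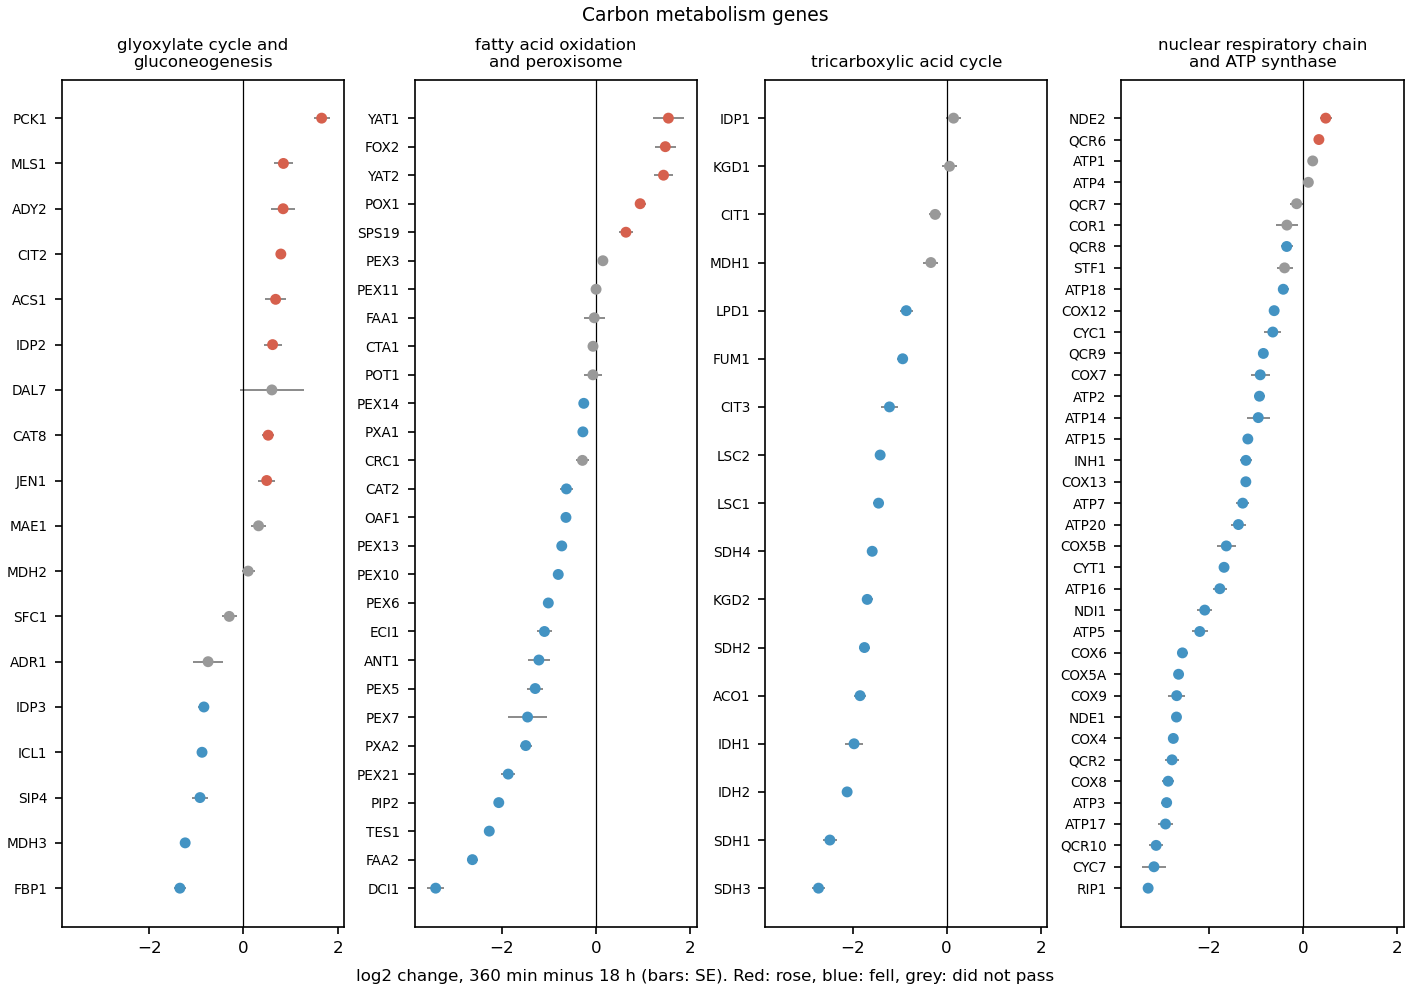
Log2 change from 18 h of drying to 360 min of rehydration (x, points, with SE bars, 3 arrays a state) for each measured gene of 4 carbon metabolism lists, sorted by change within a list; red points rose, blue points fell and grey points did not pass. All but 4 points of the tricarboxylic acid cycle are blue, while the glyoxylate and gluconeogenesis panel holds 8 red and 5 blue points.

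Enzymes of the glyoxylate cycle and gluconeogenesis split. Of the list, 8 of 18 rose, 5 fell and 5 did not pass, and the median of 0.41 turned to -0.20 under quantile normalization and -1.62 under spike-in scaling. PCK1, phosphoenolpyruvate carboxykinase, the committing enzyme of gluconeogenesis, had signals of 5295, 4173 and 4199 at 18 h and 12633, 13734 and 16911 at 360 min. All arrays at 360 min lay above those at 18 h (1.66 ± 0.17, adjusted p = 4.46e-07), though the change was 0.52 under quantile normalization and -0.37 with spike-ins set equal. FBP1, fructose-1,6-bisphosphatase, which acts later in the same route, went the other way, with signals of 4804, 4519 and 4945 at 18 h and 1989, 1564 and 2085 at 360 min. These ranges do not overlap either (-1.35 ± 0.13, adjusted p = 2.03e-07). ICL1, isocitrate lyase, the entry to the glyoxylate cycle, fell from 5895 ± 295 to 3203 ± 118 (-0.88 ± 0.10), and MDH3, the peroxisomal malate dehydrogenase, from 6435 to 2729 (-1.24 ± 0.07). CIT2, the peroxisomal citrate synthase, rose from 4414 to 7654 (0.79 ± 0.08). Only 2 of the 8 rises, those of PCK1 and CAT8, a gluconeogenic activator named here after its values were seen, were also called under quantile normalization, against all 5 falls. In the control, before drying, PCK1 read 77.5, FBP1 62.2 and ICL1 224. At 360 min all 3 signals were still far above those of the control.

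Next to HOR7, which has no usable 18 h level (below), the largest rise by the naming rule was that of ADH2, the alcohol dehydrogenase that consumes ethanol and is repressed by glucose. Its signals were 17.2, 225 and 34.4 at 18 h and 15289, 16460.4 and 17407 at 360 min. Replicate 1 at 18 h was below background and replicate 2 several times above it, yet every array at 360 min was far higher (8.32 ± 0.61, adjusted p = 8.72e-09, or 8.06 with the first array set to background). Over the 3 arrays at 18 h, ADH2 resembled the pattern of TDH3, SSA1 and CCW12, listed at 0, 209.5 and 0 (below). Its 18 h level, and so the size of the rise, is therefore uncertain. ADH2 read 412 in the control, 5795 in the dry cells, and 9440.4, 12410.1 and 10737 at 15, 45 and 90 min of rehydration, so the 18 h signal was the lowest of the 7 time points. Of the glycolysis and fermentation list, 11 of 21 rose, 5 fell and 5 did not pass, with a median of 0.48 that turned to -1.54 under spike-in scaling. The 11 include TDH3, which has no usable level at 18 h (below). PDC1, pyruvate decarboxylase, rose from 3985 ± 22 to 10076 ± 264 (1.34 ± 0.09) and ADH1, the fermentative alcohol dehydrogenase, from 5538 ± 380.4 to 12002 ± 571 (1.12 ± 0.12). PFK2 and PFK1, subunits of phosphofructokinase, the latter named after its values were seen, fell from 2377 to 935 (-1.34 ± 0.13) and from 2279 to 1042 (-1.13 ± 0.13). Under quantile normalization 4 of the 11 rises remained, namely PDC1, ADH2, TDH3 and HXK2, and ADH1 was at 0.00.

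Genes of sugar uptake showed few rises. Of the hexose transporters and sensors, 1 of 13 rose, 5 fell and 7 did not pass, with a median of -0.34, where 17.2% of all genes rose and 49.5% fell. RGT2 and HXT7, a glucose sensor and a high-affinity transporter, fell from 584 to 274 (-1.09 ± 0.08) and from 4551 to 2497 (-0.87 ± 0.07), and HXT6 from 5424 to 3717 (-0.54 ± 0.08). The probe sets of HXT6 and HXT7 are both suffixed for possible cross-hybridization, so these close relatives may not be separated. HXT5, a transporter of slow-growing cells, was the one that rose, from 4331 ± 822 to 9133 ± 500.5 (1.09 ± 0.14). That call was lost under quantile normalization, at 0.19.

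Of the fatty acid oxidation and peroxisome genes, 5 of 28 rose, 17 fell and 6 did not pass, against 17.2% of all genes that rose and 49.5% that fell, with a median of -0.64. DCI1, a peroxisomal isomerase, was among the 15 largest falls by the naming rule, with signals of 880, 724 and 757 at 18 h and 78.3, 83.5 and 61.5 at 360 min. No array of one state reached the other (-3.41 ± 0.18, adjusted p = 2.39e-10). TES1, a peroxisomal thioesterase, fell from 4919 to 1018 (-2.27 ± 0.08), FAA2, an acyl-CoA synthetase, from 2555 to 414 (-2.63 ± 0.11) and PIP2, a transcription factor of the oleate response, from 1098 to 262 (-2.07 ± 0.10). POX1, the acyl-CoA oxidase of the first step, has 4 probe sets that disagree. The one taken for the list rose from 2639.6 to 5051 (0.93 ± 0.12), while the other three fell by 1.30 to 3.56, so no direction is given for POX1. Of the 5 rises 2, those of POX1 and FOX2, remained under quantile normalization.

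Such disagreement was looked for throughout. Of 69 genes in the lists or named here that have several probe sets of their own, 9 had probe sets called in opposite directions. These were BLM10, DDR48, FAS1, FAS2, GRX5, POL2, POX1, RPS22B and RPT5. For FAS1 and FAS2, the subunits of fatty acid synthase, the probe set used in the lists rose by 0.92 and 0.51, while 6 and 5 others fell. For these 9 genes no direction is given, though they stay in the counts of their lists.

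**Figure D3:**
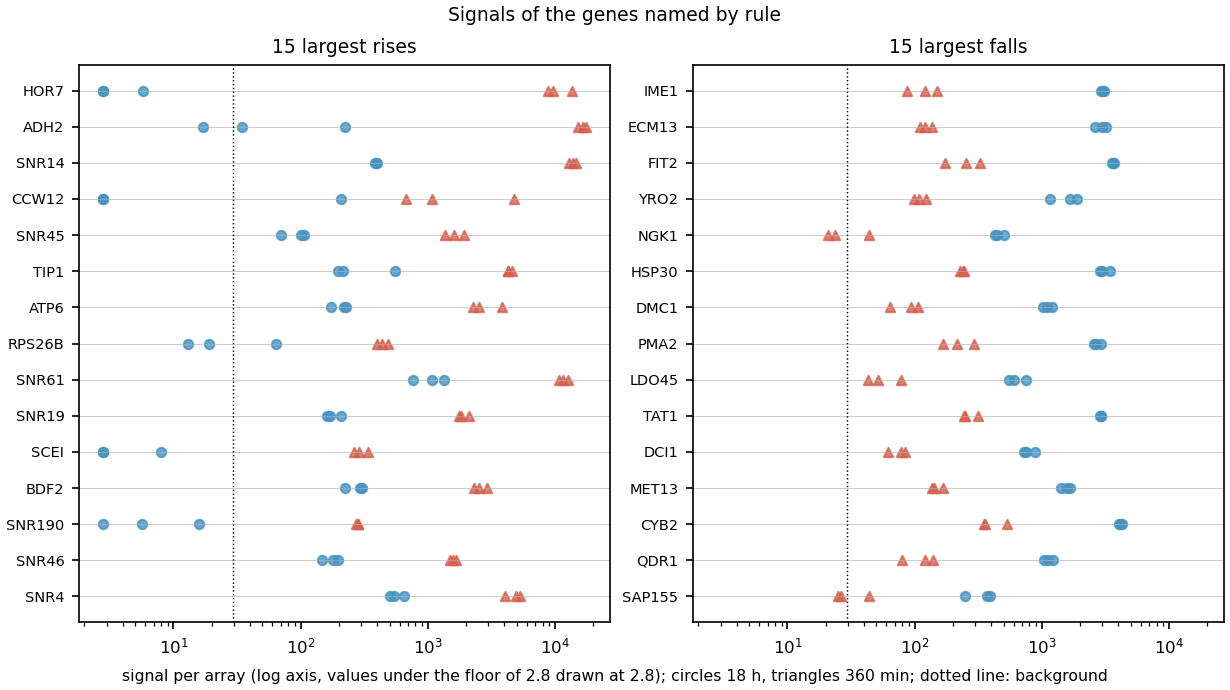
Signal on each of the 6 arrays (x, log axis) for the genes with the 15 largest rises (left) and the 15 largest falls (right) by the naming rule, with circles for 18 h of drying, triangles for 360 min of rehydration, the dotted line at background and values under 2.8 drawn at 2.8. Circles and triangles do not overlap for any of the 30 genes, a condition of the rule, and HOR7 and CCW12 have 18 h values at 0.

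Another 4 bright genes have no usable 18 h level. TDH3, SSA1 and CCW12, a glycolytic enzyme, a cytosolic chaperone and a cell wall protein, are each listed at 0, 209.5 and 0 at 18 h, the same 3 values, with signals at 360 min between 668 and 10548. HOR7, a small membrane protein of the stress response, was listed at 0, 5.80 and 1.90 at 18 h and at 9598, 8759.9 and 13489.8 at 360 min. It read 4 to 3489 over the 3 arrays at 15 min. These 4 count as risen in the lists, and no fold is given for them. Leaving out the 45 probe sets with a 0 on any of the 21 arrays gave 2040 rises and 3368 falls.

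Other large rises by the naming rule were these. TIP1, a cell wall mannoprotein of cold and anaerobic conditions, had signals of 551, 214 and 196 at 18 h and 4592, 4309 and 4266 at 360 min. The first array at 18 h stood above its partners but well under the 360 min arrays (3.94 ± 0.26, adjusted p = 3.37e-09). RPS26B, a ribosomal protein, went from 32.2 to 443 (4.13 ± 0.54, or 3.52 with signals under background set to it) and BDF2, a bromodomain protein that binds acetylated histones, from 272 ± 43.7 to 2583 ± 289 (3.25 ± 0.17). TIP1 read 3424 in the control, 4776 in the dry cells, and 6686, 7814 and 6637 at 15, 45 and 90 min of rehydration. Its 18 h signal was the lowest of the 7 time points.

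The largest fall by the naming rule, which passes over suffixed probe sets and counts signals under background as background, was that of IME1, the master activator of meiosis. Its signals were 3009, 2898 and 3056 at 18 h and 87.8, 149 and 120.2 at 360 min. Replicates agreed within each state and the states were more than an order of magnitude apart (-4.68 ± 0.17, adjusted p = 6.14e-12). IME1 read 227 in the control, 573 in the dry cells, and 464, 261 and 183 at 15, 45 and 90 min of rehydration. The 18 h signal was thus the highest of the time course. DMC1, the meiotic recombinase, fell as well, with signals of 1090.5, 1195 and 1026 at 18 h and 94.2, 64.1 and 107 at 360 min. The ranges do not touch (-3.67 ± 0.33, adjusted p = 9.56e-08), and its other probe set fell by 3.29. Among the other meiosis and sporulation genes few followed. Over the whole list 4 of 38 rose, 7 fell and 27 did not pass, a share of falls below the 49.5% of all genes, and 12 of the 38 were at background in both states. MPC54, of the spindle pole during spore formation, and GIP1, a phosphatase regulator of sporulation, fell from 224 to 37.6 (-2.57 ± 0.26) and from 396 to 189 (-1.07 ± 0.16). IME2 and NDT80, the next regulators after IME1, did not pass, at -0.40 ± 0.19 with signals near 116 and 87.2, and -0.52 ± 0.49 with signals of 46.03 and 34.5, close to background. Both were named after their values were seen.

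The other large falls hold transporters and surface proteins. ECM13, of unknown function, had signals of 2999, 3184 and 2596 at 18 h and 137, 109.9 and 119.7 at 360 min. FIT2, a cell wall mannoprotein that holds iron-siderophore complexes, had 3648, 3572 and 3673 at 18 h and 255, 175 and 326 at 360 min. Neither gene's states overlapped (-4.58 ± 0.13 and -3.90 ± 0.22). PMA2, an isoform of the plasma membrane proton pump, fell from 2717 ± 196 to 226 ± 62.6 (-3.62 ± 0.22), and HSP30, a membrane protein that restrains that pump under stress, from 3096 ± 279.6 to 239 ± 8.601 (-3.69 ± 0.10). YRO2, a relative of HSP30, fell from 1561 ± 372 to 110.3 ± 11.4 (-3.80 ± 0.39). Among transporters, TAT1, an amino acid permease, fell from 2919.5 ± 25.3 to 269.9 ± 38.3 (-3.44 ± 0.11) and QDR1, a drug exporter, from 1134 ± 91.9 to 113 ± 30.3 (-3.36 ± 0.18). CYB2, the mitochondrial lactate dehydrogenase, fell from 4145 ± 149.7 to 412 ± 105 (-3.36 ± 0.27). MET13, which makes the methyl donor for methionine, fell from 1552 ± 128 to 148 ± 15.97 (-3.39 ± 0.10). LDO45, of lipid droplet organisation, fell from 633 ± 101 to 57.7 ± 18.5 (-3.49 ± 0.24). SAP155, a partner of the phosphatase Sit4, fell from 337 ± 77.2 to 31.9 ± 10.6 (-3.42 ± 0.33) and NGK1 from 461 ± 39.4 to 29.5 ± 12.6 (-4.04 ± 0.19), both to signals near background. With signals under background set to it these were -3.29 and -3.76.

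The genes most closely tied to dehydration went both ways. Of the hydrophilin and dehydration-linked list, 1 of 12 rose, 8 fell and 3 did not pass, with a median of -0.77. HSP12, a membrane-protecting hydrophilin, had signals of 1988, 3559 and 2125 at 18 h and 14038, 14778 and 17961 at 360 min. All arrays at 360 min were well above 18 h (2.65 ± 0.24, adjusted p = 7.84e-08). HSP12 kept this direction with spike-ins set equal, at 0.62. STF2, a hydrophilin that also stabilises ATP synthase, went the other way with 6069.7, 5993 and 6260.1 at 18 h and 1651, 1633 and 1636 at 360 min. These ranges lie apart too (-1.90 ± 0.12, adjusted p = 1.70e-09). SIP18 and GRE1, hydrophilins of osmotic stress, did not pass (0.44 ± 0.19, adjusted p = 0.0568, and 0.47 ± 0.22, adjusted p = 0.0754), and their change had the opposite sign under quantile normalization. RTN2, GRE2 and YGP1, a reticulon-like protein, a reductase and a secreted glycoprotein, fell by 2.49, 1.67 and 1.55 on the log2 scale. HSP12 read 3242 in the control, 2678 in the dry cells, and 3988, 6875 and 5962 at 15, 45 and 90 min of rehydration, and its 360 min signal was the highest of all time points.

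Of the general stress genes, which Msn2 and Msn4 largely control, 7 of 35 rose, 22 fell and 6 did not pass, with a median of -0.67. The 7 include HOR7, without a level, and DDR48, whose probe sets disagree. XBP1, a repressor induced by starvation, fell from 3742 ± 156 to 988 ± 129 (-1.93 ± 0.10), PRX1, a mitochondrial peroxiredoxin, from 2127 to 712 (-1.58 ± 0.10) and UGA1, of GABA breakdown, from 675 to 178 (-1.94 ± 0.13). The regulators MSN4, MSN2 and RIM15, the kinase of entry into quiescence, fell too, MSN4 from 346 ± 48.7 to 156 ± 15.4 (-1.15 ± 0.14), MSN2 from 1298 to 695 (-0.90 ± 0.14) and RIM15 from 961 to 557 (-0.78 ± 0.10). In rises outside the rule's examples, SPG1 and SPG4, needed for survival in stationary phase, went from 4436 to 14401 and from 6216 to 16163, chosen after their values were seen. Of the 7 rises 4 remained under quantile normalization, and of the 22 falls 21.

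Chaperones fell in the main: 3 of 25 rose, 18 fell and 4 did not pass, with a median of -0.56, and the 3 rises include SSA1, without a level at 18 h. HSP104, the disaggregase, had signals of 1873, 1594 and 2096 at 18 h and 565, 617 and 622 at 360 min. All 360 min arrays were lower (-1.62 ± 0.13, adjusted p = 2.53e-08). SSC1, the mitochondrial Hsp70, fell from 1341 to 491 (-1.45 ± 0.11), FES1 and SBA1, co-chaperones of Hsp70 and Hsp90, from 1636 to 593 (-1.47 ± 0.16) and from 2743 to 1122 (-1.29 ± 0.12), and HSP26, a small heat-shock protein, from 3899 ± 272 to 2676 ± 172 (-0.54 ± 0.09). Of the 8 subunits of the chaperonin CCT, which folds actin and tubulin, 7 fell and none rose, with a median of -0.500, near that of all genes, and 3 of the 7 calls remained under quantile normalization. CCT3 and CCT8 fell by 0.96 and 0.95 on the log2 scale. In the endoplasmic reticulum, 1 of 17 rose, 8 fell and 8 did not pass, close to the share among all genes. IRE1, the sensor of unfolded proteins, fell from 339 to 131 (-1.40 ± 0.19), and HRD1, a ubiquitin ligase of protein quality control, from 591 to 273 (-1.12 ± 0.13). PDI1, disulfide isomerase, rose from 3743 to 6252 (0.74 ± 0.11), with 0.13 and no call under quantile normalization.

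Most reserve carbohydrate genes fell. Of the trehalose and glycogen list, 2 of 20 rose, 15 fell and 3 did not pass, with a median of -0.70. TPS2, trehalose phosphate phosphatase, had signals of 4021, 4526 and 3649 at 18 h and 1052, 1235 and 1431 at 360 min. The states did not overlap (-1.72 ± 0.18, adjusted p = 4.25e-07). TPS1, the synthase before it, changed by -0.23 ± 0.09 (adjusted p = 0.0412), a call that was lost with the scan day as a random block and when any array but replicate 2 at 360 min was left out, and that turned to 0.12 under median centring. Under quantile normalization TPS1 was called lower, at -0.63. GAC1 and GLG2, a targeting subunit of the phosphatase that activates glycogen synthase and a glycogenin, fell from 820.5 to 108 (-2.93 ± 0.10) and from 1517 to 529 (-1.52 ± 0.13), and NTH2 and GLG1 by 0.96 and 1.02. NTH1, the main neutral trehalase, which breaks trehalose down, rose from 2037 ± 64.9 to 4088 ± 186 (1.005 ± 0.13) and was named after its value was seen.

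Among genes of oxidative defence 4 of 27 rose, 15 fell and 8 did not pass, with a median of -0.41. This was close to all genes, of which 17.2% rose and 49.5% fell, with a median of -0.46. CTT1, cytosolic catalase, had signals of 2981, 4450.5 and 2492 at 18 h and 849.6, 835 and 1112 at 360 min. Every 360 min array was under every 18 h array (-1.80 ± 0.20, adjusted p = 1.03e-06). GRX2 and TRX1, a glutaredoxin and a thioredoxin, fell from 2573 to 349 (-2.88 ± 0.12) and from 1227 to 268 (-2.19 ± 0.14). SRX1 and TRR1, which restore oxidised peroxiredoxin and thioredoxin, rose from 120 to 288 (1.26 ± 0.16) and from 343 to 818 (1.25 ± 0.11), both chosen after their values were seen.

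**Figure D4:**
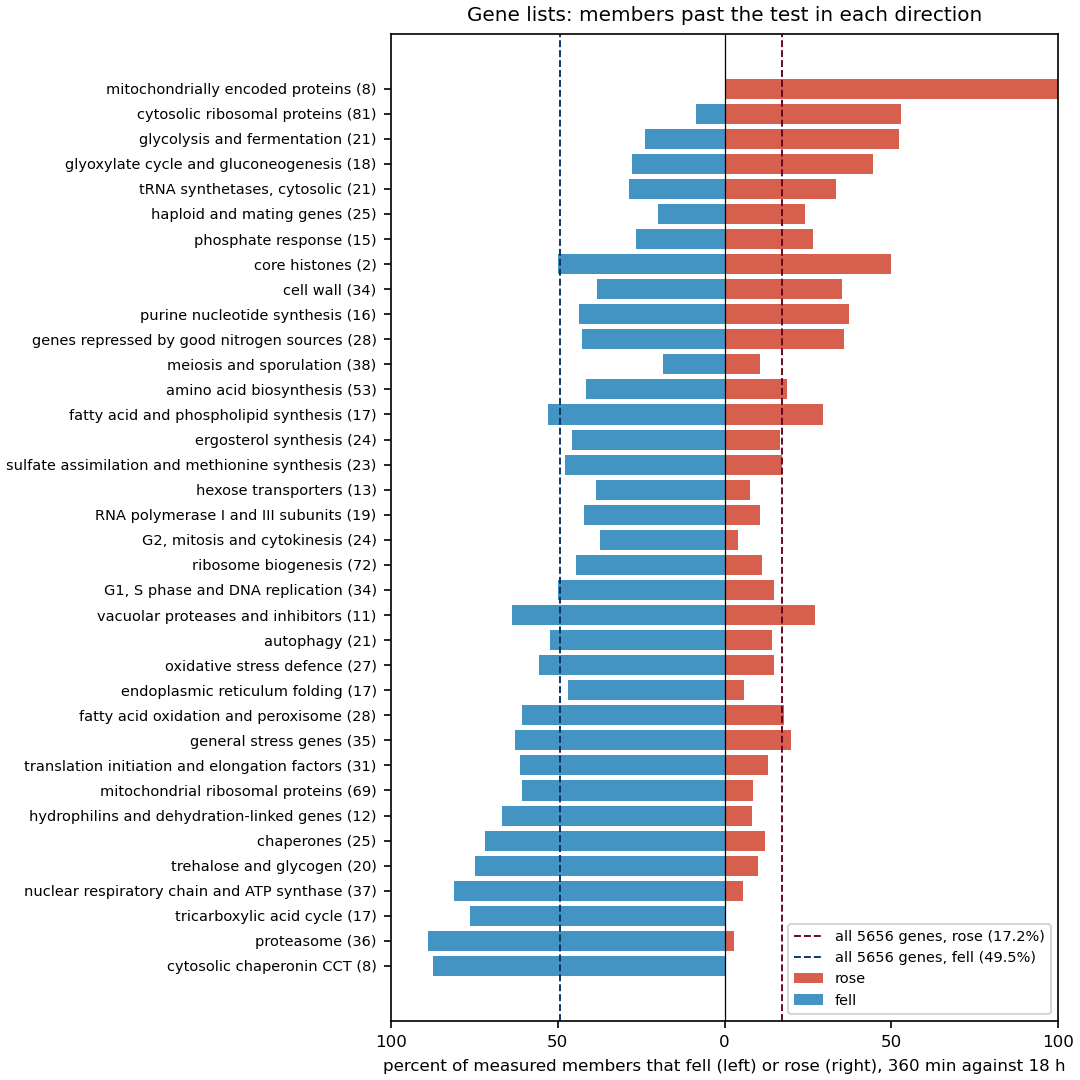
Share of the measured members of each of 36 gene lists that fell (blue bars, left) or rose (red bars, right) at 360 min against 18 h, in percent, with the number of members in brackets; dashed lines give the shares over all 5656 genes (49.5% fell, 17.2% rose). The bars for the proteasome, the tricarboxylic acid cycle and the nuclear respiratory chain reach furthest left with that of the chaperonin CCT, and those of mitochondrially encoded and cytosolic ribosomal proteins furthest right.

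The proteasome, which degrades ubiquitin-marked proteins, fell almost as a whole: 1 of 36 rose, 32 fell and 3 did not pass, with a median of -0.93 against -0.46 for all genes. RPN12, a subunit of the regulatory particle's lid, had signals of 583, 489 and 558 at 18 h and 138, 101 and 128 at 360 min. The groups are widely separated (-2.16 ± 0.11, adjusted p = 3.24e-10). RPN9 and RPN7, also of the lid, and RPN1, of the base, fell by 1.80, 1.61 and 1.59 on the log2 scale. RPN4, the transcription factor that drives proteasome genes, fell from 2091 ± 254 to 810.3 ± 162 (-1.38 ± 0.16) and was named after its value was seen. The one subunit counted as risen, BLM10, has another probe set that fell. Of the 32 falls 27 remained under quantile normalization and 24 under median centring. The list's median log2 signal was 10.25 in the control, 10.05 at 18 h and 9.23 at 360 min.

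Autophagy genes, 11 of 21 of which fell and 3 rose, stood close to the shares over all genes (49.5% and 17.2%), with a median of -0.71. ATG1, the kinase that starts autophagy, had signals of 1978, 2004 and 1755 at 18 h and 436, 419.8 and 508 at 360 min. No arrays overlapped (-2.07 ± 0.13, adjusted p = 1.16e-09). ATG3, a conjugating enzyme for Atg8, fell from 732 to 199.9 (-1.88 ± 0.10) and ATG15, a vacuolar lipase, from 525 to 154 (-1.76 ± 0.18), while ATG8 itself, named after its values were seen, did not pass (0.31 ± 0.13). ATG8 was called lower by 0.63 under quantile normalization and higher by 0.66 under median centring. Of the vacuolar proteases and their inhibitors, 3 of 11 rose, 7 fell and 1 did not pass. PAI3, the inhibitor of protease A, fell from 5392 to 1741 (-1.63 ± 0.19), and PEP4, protease A, went from 5449 to 11245 (1.05 ± 0.18). None of the 3 rises, PEP4 included (-0.05), remained under quantile normalization, while all 7 falls did.

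**Figure D5:**
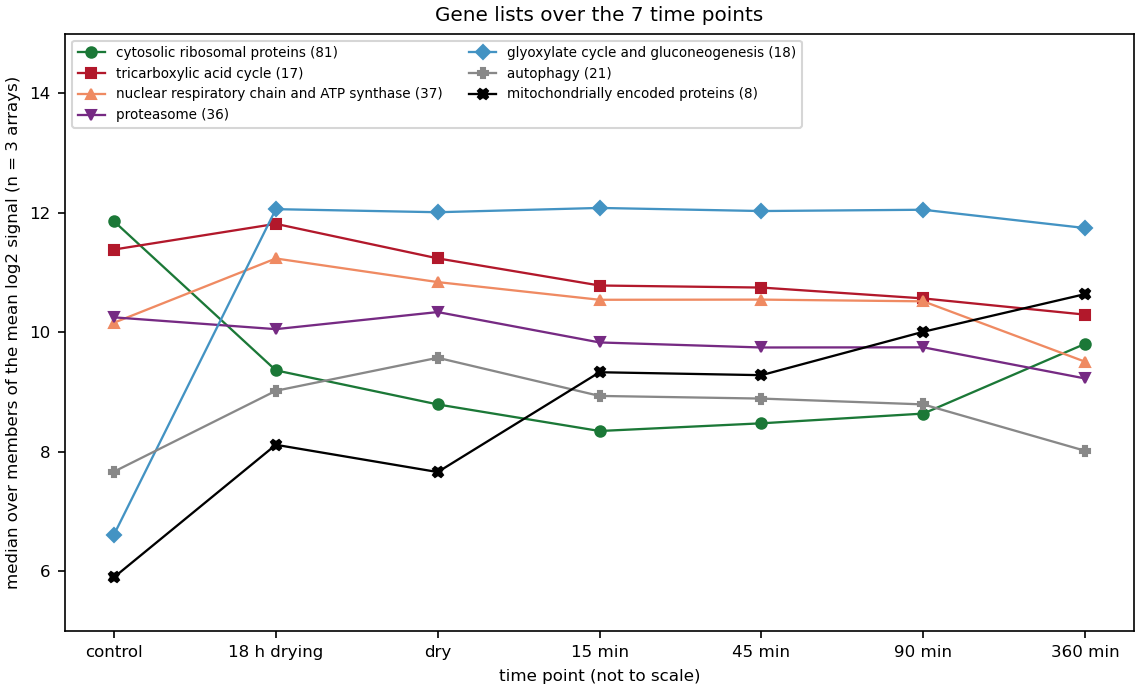
Median over list members of the mean log2 signal (y, n = 3 arrays a time point) at the 7 time points in order (x, not to scale) for 7 gene lists, with the number of members in brackets. From 18 h to 360 min the tricarboxylic acid cycle goes from 11.82 to 10.30 and mitochondrially encoded proteins go from 8.12 to 10.64, while cytosolic ribosomal proteins reach 9.81, under the 11.86 of the control.

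Of 81 cytosolic ribosomal protein genes with a probe set that names no second gene, 43 rose, 7 fell and 31 did not pass, against 17.2% of all genes that rose, with a median of 0.60 that turned to -1.43 with spike-ins set equal. Probe sets of 28 of the 81 carry the suffix for possible cross-hybridization, and of the 53 without it 28 rose, 5 fell and 20 did not pass. All 43 rises remained under quantile normalization, and 1 under spike-in scaling. Another 57 of the 138 listed genes have no probe set of their own and were not analysed here. RPS2, of the small subunit, had signals of 2139.6, 2513 and 2282 at 18 h and 7775, 8001 and 7468 at 360 min. The 360 min arrays were all higher (1.75 ± 0.10, adjusted p = 1.06e-09). RPL31B, on a suffixed probe set, and RPS22A rose from 1281 to 4047 (1.66 ± 0.10) and from 1047 to 4177 (2.004 ± 0.14), and the minor copy RPS14B fell from 988 to 182 (-2.44 ± 0.15). The list's median log2 signal was 11.86 in the control, 9.36 at 18 h, 8.35 at 15 min, its lowest, and 9.81 at 360 min.

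Genes that assemble ribosomes did not follow them. Of the ribosome biogenesis list, 8 of 72 rose, 32 fell and 32 did not pass, with a median of -0.41, close to that of all genes. TIF6, needed for the large subunit, had signals of 1640.4, 1752 and 1633 at 18 h and 288, 320.1 and 324 at 360 min. Every 360 min array was lower (-2.43 ± 0.10, adjusted p = 1.69e-11). RLP24 and DBP8 fell from 208 to 79.4 (-1.39 ± 0.08) and from 521 to 181 (-1.52 ± 0.11), while NHP2, a core protein of H/ACA nucleolar particles, rose from 509 to 1457 (1.51 ± 0.11). Among subunits of the polymerases that make ribosomal and transfer RNA, 2 of 19 rose, 8 fell and 9 did not pass. Both shares were below those of all genes, 17.2% and 49.5%. RPC19, shared by both polymerases, fell from 1198 to 272 (-2.14 ± 0.12) and RPA12 from 101 to 22.9 (-2.27 ± 0.38, or -1.71 with signals under background set to it). Of the mitochondrial ribosomal proteins, encoded in the nucleus, 6 of 69 rose, 42 fell and 21 did not pass, with a median of -0.73. MRP10 fell from 515 to 111 (-2.22 ± 0.14) and MRPL16 from 297 to 99.3 (-1.58 ± 0.11).

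Of the translation factors, 4 of 31 rose, 19 fell and 8 did not pass, where 17.2% of all genes rose and 49.5% fell. Under quantile normalization 3 of these rises and 14 of the falls remained, and under spike-in scaling 0 of the rises. The 4 that rose all act in elongation: EFB1 from 1300.2 to 3017 (1.22 ± 0.12), TEF4 from 513 to 1450.4 (1.505 ± 0.15), YEF3 from 1552 to 3860 (1.32 ± 0.14) and HYP2, the gene of eIF5A, from 4662 to 10588 (1.19 ± 0.16), the last named after its value was seen, as was ANB1. ANB1, the oxygen-repressed copy of HYP2, and HCR1, of initiation factor 3, fell from 53 to 29.2 (-0.91 ± 0.31, or -0.63 with signals under background set to it) and from 623 to 372 (-0.74 ± 0.08). Of the cytosolic tRNA synthetases, 7 of 21 rose, 6 fell and 8 did not pass. KRS1, for lysine, rose from 232 to 719 (1.64 ± 0.17) and MES1, for methionine, fell from 556 to 165 (-1.78 ± 0.20). The median of the synthetases, -0.31, turned to 0.03 under quantile normalization.

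Biosynthetic pathways were mixed. Of the amino acid biosynthesis genes, 10 of 53 rose, 22 fell and 21 did not pass, with a median of -0.38. This was close to all genes, of which 17.2% rose and 49.5% fell, with a median of -0.46. GLT1, glutamate synthase, had signals of 1954, 2198 and 1991 at 18 h and 201, 224 and 240.4 at 360 min. The arrays of the states were far apart (-3.21 ± 0.13, adjusted p = 1.38e-11). LEU1 and ILV3, of leucine and of branched-chain synthesis, fell from 3366 to 709 (-2.23 ± 0.12) and from 2431 to 472 (-2.37 ± 0.13). LYS20, the first step of lysine synthesis, rose from 4592 to 13999.8 (1.61 ± 0.16) and was named after its value was seen. GCN4, the activator of these pathways, did not pass (0.02 ± 0.13, adjusted p = 0.905), though it was lower by 0.59 and called under quantile normalization. Among sulfate and methionine genes 4 of 23 rose, 11 fell and 8 did not pass, again close to the shares over all genes. MET6, methionine synthase, fell from 3963 to 1215 (-1.69 ± 0.14) and MET28, a regulator, from 536 to 123 (-2.17 ± 0.19).

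Of the purine genes, 6 of 16 rose, 7 fell and 3 did not pass, where 17.2% of all genes rose and 49.5% fell. The 6 that rose include GUA1, GMP synthetase, from 245 to 904 (1.89 ± 0.16), and ADE8, from 733 to 1519 (1.05 ± 0.09). ADE2 fell from 912 to 320.3 (-1.51 ± 0.13) and ADE3 from 1433 to 668 (-1.10 ± 0.12). Of the ergosterol genes, 4 of 24 rose, 11 fell and 9 did not pass, close to the shares over all genes. ERG13 and HMG1, early mevalonate enzymes, fell from 971 to 201 (-2.27 ± 0.11) and from 2910.1 to 932 (-1.64 ± 0.09), and ERG1, squalene epoxidase, from 261 to 24.5 (-3.54 ± 0.28). Of the ERG1 arrays at 360 min 2 were below background, and with these set to it the change was -2.99. Of the genes for fatty acids and phospholipids, 5 of 17 rose, 9 fell and 3 did not pass, and the rises include FAS1 and FAS2, whose probe sets disagree. ELO1, an elongase, fell from 1623 to 392 (-2.05 ± 0.12), ITR1, the inositol transporter, from 3377 to 1119 (-1.59 ± 0.15) and ELO3, another elongase, rose from 301 to 775 (1.36 ± 0.16).

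Cell wall genes changed in both directions: 12 of 34 rose, 13 fell and 9 did not pass, where 17.2% of all genes rose and 49.5% fell. The median of 0.20 turned to -1.83 under spike-in scaling, and the rises include CCW12, without a level at 18 h. PIR3, a covalently bound wall protein, had signals of 2196, 2748 and 2115 at 18 h and 302, 250.3 and 391 at 360 min. The arrays of the states were well separated (-2.92 ± 0.14, adjusted p = 1.35e-10). Its relative PIR1 fell from 2678 to 404 (-2.73 ± 0.13). EXG2, a glucanase, rose from 64.1 ± 1.86 to 507 ± 90.4 (2.97 ± 0.13), and CHS1, a chitin synthase used in repair, from 495 to 1398 (1.497 ± 0.11), the latter named after its value was seen.

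Of the genes that good nitrogen sources repress, 10 of 28 rose, 12 fell and 6 did not pass, a larger share of rises than the 17.2% of all genes. PUT1 and PUT2, successive enzymes of proline breakdown, went opposite ways. PUT1 had signals of 2654, 2341 and 2666 at 18 h and 7427, 7890.3 and 10243 at 360 min. PUT2, chosen after its values were seen, had 1479.5, 1402 and 1626 at 18 h and 396, 446 and 159 at 360 min. Neither overlapped (1.73 ± 0.12 and -2.30 ± 0.25). PTR2, a peptide transporter, fell from 2263 to 335 (-2.76 ± 0.12), and UGA2 and UGA1, of GABA breakdown, by 1.39 and 1.94. MEP2, the high-affinity ammonium transporter, rose from 442 to 1318 (1.57 ± 0.11) and GAT1, an activator, from 1916 to 4107 (1.09 ± 0.12), both named after their values were seen. Of the phosphate response genes, 4 of 15 rose, 4 fell and 7 did not pass, where 49.5% of all genes fell. PHO5 and PHO3, acid phosphatases with similar sequences, rose from 132 to 631 (2.27 ± 0.11) and from 57.5 to 266 (2.26 ± 0.33), PHM8 fell from 235 to 105 (-1.17 ± 0.13), and the transporter PHO84 did not pass (-0.25 ± 0.12).

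Genes of the cell cycle gave no general rise. In the G1 and S phase list 5 of 34 rose, 17 fell and 12 did not pass, with a median of -0.73. These shares were close to those of all genes, of which 17.2% rose and 49.5% fell, with a median of -0.46. SWI6 and SWI4, the partners of the factor that opens S phase, fell from 431 ± 48.7 to 50.8 ± 18.8 (-3.16 ± 0.21) and from 157 ± 35.5 to 42.1 ± 7.47 (-1.89 ± 0.16), and MCM4, of the replicative helicase, from 529.6 ± 35.01 to 139 ± 10.04 (-1.93 ± 0.13). CDC21, thymidylate synthase, on a suffixed probe set, fell from 66.97 to background on all arrays at 360 min, at least 2.24-fold lower. CLN2, a G1 cyclin, rose instead, with signals of 19, 7.4 and 11.9 at 18 h and 102, 100.1 and 118 at 360 min. It was at background at 18 h and low at 360 min, and was chosen after its values were seen. CLN3, the cyclin upstream, did not pass (0.07 ± 0.11, adjusted p = 0.646). In the G2 and mitosis list 1 of 24 rose, 9 fell and 14 did not pass, both shares below those of all genes. DBF2 and CDC15, kinases of mitotic exit, fell from 316 to 77.5 (-2.03 ± 0.13) and from 674 to 246 (-1.46 ± 0.15). Of the core histones 2 of 8 genes had a probe set of their own, and HTB2 rose by 1.61 while HTB1 fell by 1.36. ACT1, actin, often taken as a reference, did not pass (-0.03 ± 0.09, adjusted p = 0.788), but it was called lower by 0.63 under quantile normalization and higher by 0.32 under median centring.

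The genes used by haploid mating cells had a median log2 signal of 5.18 at 18 h and 5.44 at 360 min, but not all were dim. STE20 averaged 394 at 18 h and 289 at 360 min, and SAG1, RME1 and AGA1 (below) also exceeded the array medians at 18 h. The list is therefore no check of the diploid state. The summed signal of the 25 genes was 2332 to 2595 at 18 h and 1895 to 2122 at 360 min, of which SAG1 alone made 463 and 560 on average. The receptor genes STE2 and STE3 had mean signals of 13.7 and 39.3 at 18 h and 35.2 and 46.1 at 360 min, around background. Of the list, 6 of 25 rose, 5 fell and 14 did not pass, where 17.2% of all genes rose and 49.5% fell. Among the rises, STE2, ASG7, MF(ALPHA)1 and FUS2 were at background on all 18 h arrays. ASG7 was at background at 360 min as well, and the MF(ALPHA)1 arrays of the states overlapped. AGA1, an agglutinin anchor, fell from 234 to 56 (-2.05 ± 0.14), and RME1, a repressor of IME1, from 316 to 87.4 (-1.88 ± 0.16).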

How the data were processed

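Per the labels, total RNA was hybridized as cRNA to the Affymetrix YG_S98 chip, and the GeneChip software gave signals that were processed with a Wilcoxon signed-rank step and a 2-step linear mixed model. Whether this model had been applied to the deposited values is not stated. The deposited table holds one linear intensity per probe set and array. Its 2% trimmed means of 500.2 to 500.6 show that the authors had scaled the arrays, so it was used as deposited. The arrays' number, not a read depth, limits precision. Samples were grouped by their titles.

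Values under 2.8, the 5th percentile of positive values, were set to 2.8. The log2 of the deposited intensity was fitted with limma 3.58.1 in R 4.3.3, with one mean per time point over all 21 arrays (14 residual and 1.53 prior degrees of freedom), and p-values were adjusted by Benjamini-Hochberg over 9275 probe sets. The fit was tested on simulated data. Background is the 95th percentile of 19 unspiked control probe sets over all arrays. Where one state lay under it on every array, a change is "at least" the brighter state's mean over background. Platform annotation and RefSeq (R64, names only) matched 6504 probe sets to 1 gene, left 2443 unmatched and tied 328 to several genes. A gene stands in a list as its brightest probe set, and 1730 probe sets are suffixed for cross-hybridization.

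The rule for named genes takes the 15 largest rises and falls among unsuffixed probe sets with a standard gene name that were called, did not overlap and were above background in the brighter state, with signals under background set to it. It adds 20 genes whatever their values and up to 4 members of each of 36 lists with the smallest adjusted p. Members, lists and tests were chosen with earlier results of these data known. Alternatives were other scalings, floors, an added 50, a filter on dim probe sets, 6 arrays only, an intensity trend, replicate and scan-day blocks, a 2-fold minimum and leaving out each array. A further alternative, without probe sets listed at 0, was added after the data were seen. Promoter sequences were not analysed here.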

Additional observations from a re-analysis of the deposited data

How the results depend on the processing

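As deposited, 5426 probe sets changed, 2056 of them higher at 360 min and 3370 lower. Median centring gave 3120 higher. Spike-in scaling gave 8154 changed, 114 of them higher and 8040 lower. A minimum of 2-fold left 3110, of which 1284 were higher and 1826 lower. Under the other settings that kept all arrays, 1689 to 2492 were higher and 2746 to 3450 lower, leaving aside median centring. The scan day as a random block (correlation 0.162) gave 1819 and 3072, and leaving out the dimmest 25% of probe sets, which tests fewer, 1689 and 3213. Leaving out each array in turn gave 4936 to 5166 changed, 1834 to 1981 higher and 3102 to 3247 lower.

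Group and scan day cannot be told apart, and that block does not separate them. The replicate numbers did not pair the samples. Same-numbered deviations correlated at 0.013, 0.008 and -0.007, and the replicate block gave 5387 changed, 2043 higher and 3344 lower.

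Of 177 genes named by rule, the sign of the change turned under quantile normalization for 6, namely GCN4 (-0.59), SIP18 (-0.21), GRE1 (-0.38), CIT2 (-0.0526), APE3 (-0.19) and PEP4 (-0.0521), and under median centring for TPS1 (0.12) and ACT1 (0.32). Under spike-in scaling it turned for 31, namely SIP18 (-1.59), GRE1 (-1.56), PCK1 (-0.37), POX1 (-1.09), CLN3 (-1.96), GCN4 (-2.01), HTB2 (-0.41), RPL31B (-0.37), RPS2 (-0.28), RPS22A (-0.0245), PDI1 (-1.29), ELO3 (-0.67), PUT1 (-0.30), PDC1 (-0.69), ADH1 (-0.91), CIT2 (-1.23), STE2 (-0.65), HXT5 (-0.94), COX1 (-0.59), ATP8 (-0.24), VTC3 (-1.25), GUA1 (-0.14), ADE8 (-0.98), NHP2 (-0.51), KRS1 (-0.39), CRS1 (-0.93), EFB1 (-0.81), TEF4 (-0.52), YEF3 (-0.71), APE3 (-0.87) and PEP4 (-0.98). Leaving out 1 array turned the sign of CLN3, ACT1 or GCN4, none of which had passed. The spike-in values follow from the shift of -2.03, and the cause of the others was not tested. The call for CCW12 was lost with no floor, with the scan-day block and without some arrays, and that for TPS1 with no floor, without the dimmest 25%, with the scan-day block and without 5 of the 6 arrays in turn. List medians had another sign in 6 of 36 lists under quantile normalization, 7 under median centring and 9 under spike-in scaling, and in at most 2 under any other setting.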

Other observations

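Probe sets to which the annotation gives no gene behaved unlike those of protein-coding genes. Of 2443, 767 rose and 219 fell, with a median log2 change of 0.43, and 707 were at background in both states. With signals under background set to it, the median was 0.02.

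CRS5, the copper-binding metallothionein that RefSeq lists as a pseudogene, rose from 3158 ± 73.7 to 6526 ± 461 in signal (1.04 ± 0.13), and was picked after its values were seen. RDN37-1, the precursor of the large ribosomal RNAs, went from 5348 ± 118 to 17411 ± 1661 on a suffixed probe set (1.70 ± 0.10), with -0.33 when spike-ins were set equal.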
